A study of Mus musculus with 12 samples.

Results

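Eos+ Tregs were set against conventional CD4 T cells (Tconv) of the mouse thymus across all genes, with 4 RNA sequencing libraries of each population, 8 of the 12 libraries of the series. The members were taken by their labels. The mice were CD4-Cre x Foxp3-GFP throughout, per the labels' protocols, so the Cre transgene under a Cd4 promoter and the green fluorescent Foxp3 reporter were shared by all groups. Eos+ Tregs were the CD4+ cells that were Foxp3+, Ccr6+ and Cxcr4+, and Tconv were the CD4+ cells that were Foxp3-. Eos- Tregs (CD4+, Foxp3+, Ccr6- and Cxcr4-), also in 4 libraries, entered the same fit and are used here only to place single genes. The labels list "Eos+" under genotype, but by the protocol Eos, the protein of Ikzf4, was not itself sorted on: the name stands for the surface gate. The labels name no treatment. The labels used here give no age and do not say whether libraries came from separate animals or pools, so each p-value rests on the spread among libraries, part of which may be technical. Every library name carries an Eos number, the same 4 numbers in each population (replicates 1 to 4), and these paired the populations.

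Foxp3 is the transcription factor that defines regulatory T cells. Tregs are selected in the thymus by strong T cell receptor and interleukin-2 signals, and they restrain other T cells through the CTLA-4 receptor, capture of interleukin-2, activation of latent TGF-beta and adenosine. Some Tregs of the thymus are not newly made there but return from the periphery. Such recirculating cells are described in the field as antigen-experienced, with Ccr6 on the surface, low expression of genes of naive cells, and the capacity to bind interleukin-1 through the decoy receptor of the Il1r2 gene. Tconv of the thymus are mostly recently selected cells on their way to the periphery.

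The labels were checked first. Foxp3 (ENSMUSG00000039521.13, chromosome X, 7573644 to 7595245, mm10) stood at 55, 485, 819.6 and 655 CPM (counts divided by the scaled library total and multiplied by 1e6) in Eos+ Treg replicates 1 to 4 and at 0.687, 3.19, 3.42 and 0.841 CPM in Tconv. The groups did not overlap, but Eos+ Treg replicate 1 was far below the other Eos+ Treg libraries. The Eos- Treg library of the same number shared the low level, with Foxp3 at 53.3, 653, 862 and 760.1 CPM in Eos- Tregs. Ikzf4 was 319, 334, 312 and 292 CPM in Eos+ Tregs and 24.1, 26.8, 27.4 and 22.7 in Tconv. Ccr6, a chemokine receptor and sort marker, was 227, 249, 263 and 247 against 4.22, 3.62, 4.16 and 1.08 CPM. Cxcr4, the other sort receptor, was 52.9, 25.2, 40.4 and 38 against 20.01, 7.27, 20.5 and 12.8 CPM, the narrowest separation among the genes sorted on. Cd4, on which all cells were sorted, was lower in Eos+ Tregs, at 579.98, 532, 632 and 553 against 938, 932, 1079 and 849.7 CPM. Foxp3, Ikzf4, Ccr6, Cxcr4 and Cd4 each had an exact two-sided permutation p of 0.0286, the smallest that 70 arrangements of 8 libraries can give. With swaps only within the 4 pairs, a test added after the data were seen, the exact p of each was 0.125, the smallest that 16 arrangements can give, so that design cannot reach 0.05. The other markers given for the population also separated the groups. Lrrc32 was 376, 442, 520.03 and 559 CPM against 2.19, 3.09, 3.26 and 3.94. Klrg1 was 29, 16.6, 31 and 11.5 CPM against 0, 0.071, 0.0932 and 0. Il1r2 was 233, 373, 293 and 302 CPM against 1.21, 0.142, 0.528 and 0.841. Klrg1 was uneven among the Eos+ Treg libraries and lacked any count in Tconv replicates 1 and 4. Hdac9 was 35.3, 73.7, 58.4 and 53.8 CPM against 0.0327, 0.071, 0.249 and 0.447. None of these 4 overlapped between the groups, and replicate 1, low in Foxp3, lay within the range of the other Eos+ Treg libraries for Klrg1 but gave the lowest values for Lrrc32, Il1r2 and Hdac9.

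The 8 libraries held 27.6 to 37.9 M expected counts. Of 15361 genes tested, 36.3% differed at an adjusted p below 0.05 (edgeR), 3041 of them higher in Eos+ Tregs (19.8%) and 2530 lower (16.5%). More than 2-fold differences numbered 1601 higher (10.4%) and 711 lower (4.63%), more than 8-fold differences 625 and 177, and more than 64-fold differences 176 and 29. Over all genes tested the median log2 fold change was -0.02. The counts of list members below are to be read beside the shares of 19.8% higher and 16.5% lower. All 4 Eos+ Treg libraries lay above or below all 4 Tconv libraries in 33.1% of genes (18.5% above and 14.6% below). A test against a 1.5-fold change called 1463 genes higher and 638 lower, and without the 3 libraries numbered 1 the counts were 2743 and 2172. There were 55 genes with a mean of at least 1 CPM in Eos+ Tregs and 0 counts in all 4 Tconv libraries, and 5 genes the other way round.

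**Figure D1:**
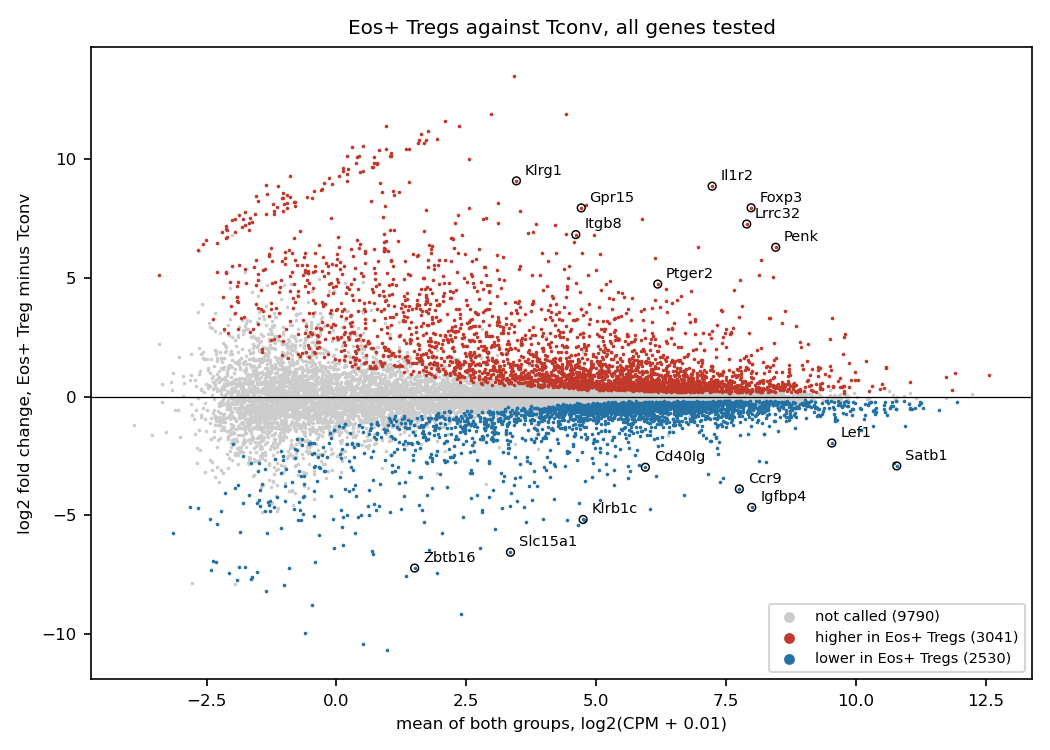
Log2 fold change between Eos+ Tregs and Tconv (y axis) against mean log2 CPM of both groups (x axis), 1 point per gene tested (15361). Coloured points have an adjusted p below 0.05, 3041 higher in Eos+ Tregs and 2530 lower, and named points are genes given in the text.

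Genes of Treg identity and suppression mostly rose, with 25 of 28 tested members higher, 2 lower and 1 not called, a median log2 fold change of 3.31, and 25 higher and 2 lower without the libraries numbered 1. The lower members were Ndrg1, a stress-response gene (1.82-fold), and Gbp4, a guanylate-binding protein (1.81-fold). The list holds Foxp3, which the sort fixes. Lrrc32 encodes GARP, which holds latent TGF-beta on the cell surface. Itgb8, the integrin chain that releases active TGF-beta from such a complex, was 42.2, 49.3, 53.1 and 48.7 CPM in Eos+ Tregs against 0.163, 0.461, 0.622 and 0.473 in Tconv, 113-fold higher (log2 fold change 6.82, SE 0.236, adjusted p = 4.09e-08). Tgfb1, the cytokine gene itself, was 126 ± 16.8 against 121 ± 7.28 CPM and was not called (adjusted p = 0.657). Ctla4, which strips CD80 and CD86 from antigen-presenting cells, was 436, 335, 435 and 489 against 17.6, 8.98, 12.6 and 17.9 CPM and 30.2-fold higher (adjusted p = 1.17e-08).

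Both enzymes that turn extracellular ATP into adenosine were higher. Entpd1 (CD39), the first of them, was 33.3 ± 7.69 against 5.67 ± 1.81 CPM (6.03-fold, adjusted p = 2.54e-06), and Nt5e (CD73), the second, was 480.2, 479, 423 and 300.5 against 31.4, 21.5, 25.7 and 41.4 CPM, 14.2-fold higher. Among the 27 genes of adenosine, purinergic and cAMP signalling, 14 were higher and 5 lower. Cd38, an ectoenzyme that consumes NAD, was 10.8-fold higher and Pde2a, a cAMP and cGMP phosphodiesterase, 5.35-fold higher, while Pde3b, another phosphodiesterase of cAMP, was 17.4-fold lower at 11.7 ± 3.99 against 196 ± 14.5 CPM. Ptger2, a prostaglandin E2 receptor that raises cAMP, was among the genes with the smallest p, at 197, 149, 118 and 97.6 against 6.6, 5.64, 3.6 and 4.84 CPM (26.6-fold, adjusted p = 1.72e-08). Penk, the precursor of the enkephalin peptides, was 765, 787, 583 and 639 CPM against 12.1, 4.72, 6.43 and 14.6, 77.9-fold higher. For Nt5e, Ptger2 and Penk the groups did not overlap.

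**Figure D2:**
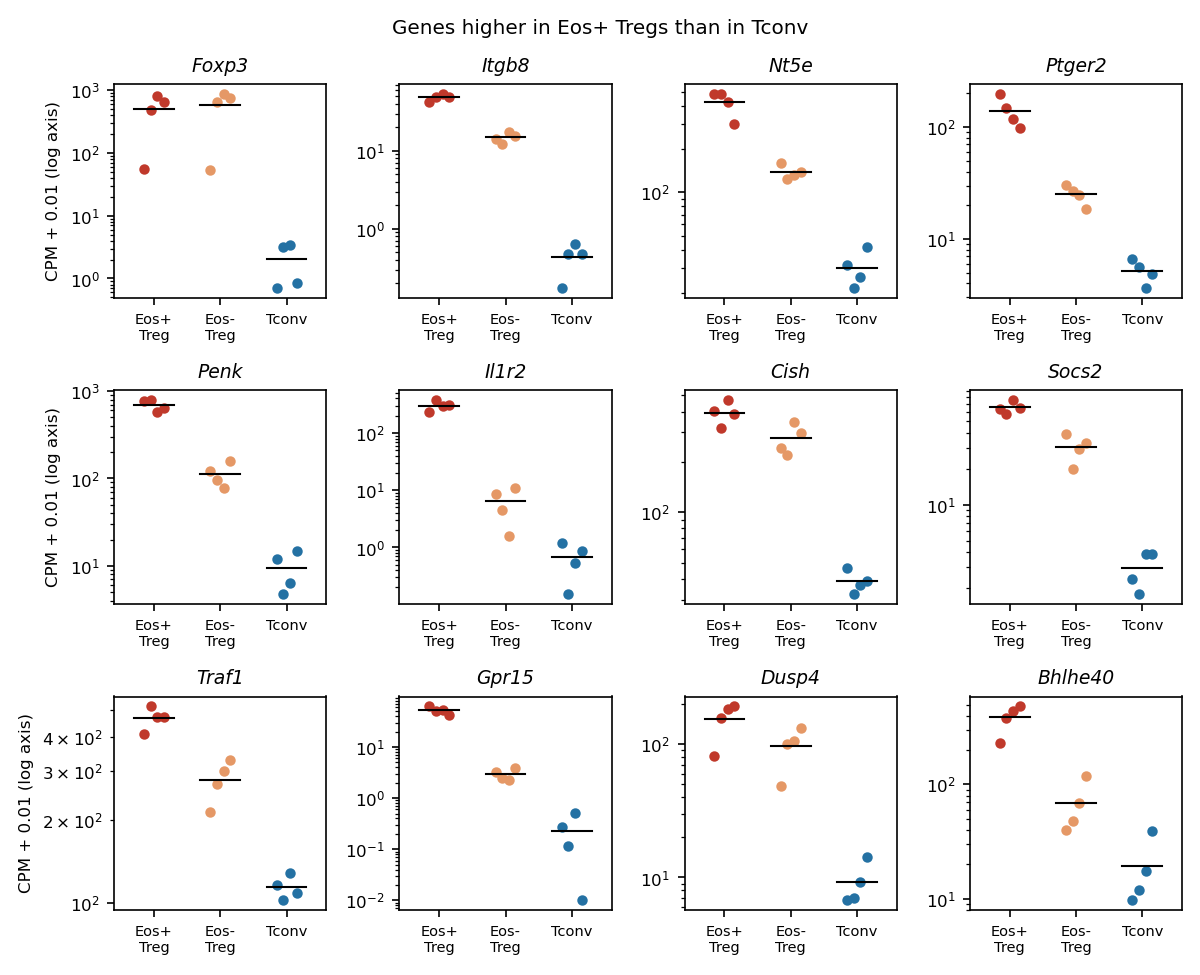
CPM plus 0.01 on a log axis for 12 genes that were higher in Eos+ Tregs than in Tconv, 1 point per library, with Eos- Tregs shown for reference and a bar at each group mean. Every Eos+ Treg point lies above every Tconv point, and Foxp3 of Eos+ Treg replicate 1 (55 CPM) lies below the other Eos+ Treg libraries.

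Genes of effector and tissue Tregs were higher in 25 of 30 cases and lower in 1, with a median log2 fold change of 3.49, and 23 were higher without the libraries numbered 1. Ebi3, a subunit of interleukin-35, was 86.9, 61.3, 47.2 and 51.7 CPM against 1.37, 0.106, 0.186 and 0.762 (113-fold). Tigit, a receptor for CD155, was 47.2 ± 7.14 against 0.542 ± 0.434 CPM (91.7-fold). Tnfrsf8, which encodes CD30, was 66.7-fold higher (adjusted p = 2.75e-05). For Klrg1, an inhibitory receptor of late effector cells whose values stand above, and for these genes every Eos+ Treg library exceeded every Tconv library. On the log2 scale Klrg1 differed by 9.08 over all libraries and by 8.48 without Tconv replicate 1 and 9.73 without Tconv replicate 2. Tigit had a log2 fold change of 6.52 over all libraries, which became 7.19 without Tconv replicate 4. With all libraries in the fit Tnfrsf8 differed by 6.06 (log2), against 6.72 without Tconv replicate 1. Il10, by contrast, was scarce in both populations, at 0.251, 0.488, 2.83 and 1.55 CPM against 0, 0, 0.0311 and 0.131, although it was called higher (adjusted p = 0.0195). That call rested on few counts. The log2 fold change of Il10, 4.92 over all libraries, was 4.73 without Eos+ Treg replicate 1 (adjusted p = 0.0612), 4.52 without Eos+ Treg replicate 2 (adjusted p = 0.0688), 5.19 without Eos+ Treg replicate 4 (adjusted p = 0.0719), 4.75 without Tconv replicate 2 (adjusted p = 0.0596), 3.95 without Tconv replicate 3 (adjusted p = 0.0643) and 7.96 without Tconv replicate 4. Without the replicate block its adjusted p was 0.0508. Il12a, the gene of the other subunit of interleukin-35, was scarce as well, at 0.445 ± 0.0938 against 0.0163 ± 0.0327 CPM. It was called higher (adjusted p = 0.0219). Fgl2 (51.5 ± 19.5 against 42.3 ± 22.5 CPM, adjusted p = 0.75) and Irf4 (31.6 ± 10.4 against 25 ± 2.31 CPM, adjusted p = 0.218) of the same list were not called. The member of that list that was lower was Gzmb (granzyme B), at 8.7 ± 3.95 against 38.1 ± 24.1 CPM (log2 fold change -2.02, adjusted p = 0.0117). Of transcription factors that shape effector cells, Bhlhe40 was 232, 384, 443 and 483 CPM against 9.68, 11.9, 17.4 and 39 (22.1-fold) and Nfil3 was 11.7-fold higher. Helios, the relative of Eos that Ikzf2 encodes, was 465, 579, 555 and 739.9 CPM against 43.2, 72.3, 58.6 and 61.6 at the RNA level (9.98-fold). Hdac9, a class IIa histone deacetylase, rose 268-fold, while among the 36 histone deacetylases and chromatin regulators as a whole 7 were higher (4 without Tconv replicate 2) and 16 lower (10 without Eos+ Treg replicate 2). On the log2 scale Hdac9 differed by 8.07 over all libraries and by 8.97 without Tconv replicate 4. Tet1, which oxidises methylated cytosine, was 4.49-fold lower at 12.5 ± 4.97 against 54.8 ± 2.96 CPM.

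Of 34 tested cytokine receptor genes, 18 were higher, 6 lower and 10 not called. Within the interleukin-1 family, Il1r2, which binds interleukin-1 without signalling, reached 300.3 ± 57.4 CPM, 463-fold above Tconv, while the signalling receptor Il1r1 was called higher but stood at 3.45, 2.1, 1.75 and 0.587 CPM in Eos+ Tregs, and without the replicate block its adjusted p was 0.0583. Il1r1 had a log2 fold change of 5.38 over all libraries, which became 6.38 without Eos+ Treg replicate 1. Il1rl1, the receptor for interleukin-33, was 53.1, 24, 47.7 and 22.3 CPM against 0.131, 0.461, 0.435 and 0. With all libraries in the fit Il1rl1 differed by 7.23 (log2), against 6.55 without Tconv replicate 1 and 8.25 without Tconv replicate 2. Of the interleukin-2 receptor, the alpha chain Il2ra was 538, 402, 642 and 602 CPM against 30.04, 9.62, 9.26 and 18.2 (34.4-fold), a wide separation in all 4 pairs. The beta chain Il2rb was 1481 ± 243 against 266 ± 73.8 CPM (5.67-fold, adjusted p = 6.86e-08). The gamma chain Il2rg was lower by a small amount, at 1851 ± 141 against 2303 ± 93.2 CPM (log2 fold change -0.32, adjusted p = 0.0031). Il9r, for interleukin-9, was 13.5-fold higher. The receptor genes Il4ra (312 ± 67.9 against 331 ± 35.1 CPM), Il17ra (302 ± 38.2 against 319.8 ± 42.4 CPM) and Il27ra (375 ± 21.4 against 386 ± 29.6 CPM) were not called (adjusted p = 0.479, 0.442 and 0.667). Il7r, which receives the survival signal of naive T cells, was 478, 279, 238 and 249.9 CPM against 444, 398, 289.7 and 499.98 and was not called either (adjusted p = 0.134). The log2 fold change of Il7r, -0.45 over all libraries, was -0.68 without Tconv replicate 1 (adjusted p = 0.0108).

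Downstream of interleukin-2, the JAK-STAT5 list had 13 of 25 members higher and 6 lower. Its feedback inhibitors went both ways. Socs6 (1.33-fold, adjusted p = 0.0222) and the phosphatase gene Ptpn2 (1.2-fold, adjusted p = 0.00723) were lower, Socs4, Socs7 and Pias1 were not called (adjusted p = 0.147, 0.977 and 0.452), and Cish, Socs1, Socs2, Socs3 and Socs5 were higher. Socs6 lost its call without Eos+ Treg replicate 1, 2 or 4 or Tconv replicate 2 or 4 (adjusted p 0.0508 to 0.0805). Cish was 403, 320.3, 467 and 388 against 46.6, 32.3, 36.7 and 39 CPM (10.1-fold, adjusted p = 4.88e-08) and Socs2 63.6, 57.2, 75 and 65 against 2.39, 1.77, 3.85 and 3.86 (22.5-fold, adjusted p = 2.07e-07). Pim1, a survival kinase gene, was 6.2-fold higher, and Stat5a 2.13-fold. Mcl1 (549.7 ± 133 against 497 ± 99.6 CPM) and Jak2 (207 ± 37.8 against 206 ± 15.5 CPM) were not called (adjusted p = 0.19 and 0.942).

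Of 29 TNF receptor superfamily and ligand genes, 17 were higher and 3 lower. These receptors costimulate T cells and signal to NF-kB. Tnfrsf4 (OX40) was 1259, 1376, 1382 and 1395 CPM against 141, 115, 119 and 187 (9.8-fold). Tnfrsf18 (GITR) was 1117, 1214, 1217 and 1322 against 202, 207, 202 and 304 CPM (5.4-fold). Both were tight among the Eos+ Treg libraries. Cd40lg, the helper T cell ligand for CD40, went down, at 23.6, 12, 14.8 and 8.77 CPM in Eos+ Tregs against 100.3, 108, 99.4 and 126 in Tconv (7.86-fold lower, adjusted p = 1.42e-05). Cd27 (378 ± 18.7 against 356 ± 23.2 CPM, adjusted p = 0.275) was not called. The NF-kB list had 25 of 34 members higher and 2 lower, with 26 and 2 without the libraries numbered 1, but its median log2 fold change was 0.94, smaller than that of the Treg identity list. The subunits rose by modest amounts, Rel 2.91-fold, Nfkb2 3.28-fold and Rela 1.42-fold. Traf1, an adaptor of TNF receptors, was 409, 516, 470.3 and 473 against 116, 103, 128 and 109 CPM (4.08-fold), and Icam1, an adhesion ligand, 3.86-fold higher (adjusted p = 9.20e-08). Nfkbia, which encodes the inhibitor IkB-alpha and is itself an NF-kB target, was 739.9, 761, 919 and 1081 CPM against 372, 269, 412 and 416 (2.38-fold). Of the kinases upstream, Ikbkb (277 ± 31.4 against 253 ± 22.5 CPM) and Ikbke (405 ± 26.4 against 413 ± 39.3 CPM) were not called (adjusted p = 0.168 and 0.81).

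The NF-kB recognition sequence was looked for in the promoters of changed genes, as GGGA, any base and TTTCC in a row, on both strands of the 300 bases from 250 before to 50 after a gene's most upstream start in RefSeq (GRCm38.p6). Promoter sequences matched 10383 of the 15361 genes tested. The motif stood in 42 of all 10383 promoters (0.405%), in 14 of the 1130 promoters of genes that were called and more than 2-fold higher (1.24%) and in 2 of the 451 of genes more than 2-fold lower (0.443%). It was 1 of 4 motifs searched, on both strands. The forkhead motif GTAAACA stood in 2.56% of all promoters, 2.74% of the higher set and 2.66% of the lower. The TCF/LEF motif CTTTGAT stood in 2.46%, 2.04% and 0.887%, and TGGGAAT, which holds the Ikaros core, in 3.57%, 3.72% and 4.43%. These shares are a description without a test, and a match is not a measured binding site. The 3 stretches that follow, each on the gene's own strand, show the motif in capitals upstream of the start, and they were picked after the matches were seen because their genes are a growth factor, a membrane-binding protein and an NF-kB inhibitor that rose in these data.
Csf1 (chr3:107760579-107760658, minus strand): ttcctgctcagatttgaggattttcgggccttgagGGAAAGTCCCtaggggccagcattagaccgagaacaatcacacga
Anxa4 (chr6:86793595-86793674, minus strand): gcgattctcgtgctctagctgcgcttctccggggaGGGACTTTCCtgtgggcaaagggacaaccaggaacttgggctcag
Nfkbia (chr12:55492648-55492711, minus strand): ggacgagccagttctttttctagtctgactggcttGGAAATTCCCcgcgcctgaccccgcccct
In Anxa4 the motif reads as spelled, and in Csf1 and Nfkbia as its reverse complement. Csf1, the macrophage growth factor, was 35.5, 44, 45.3 and 29.8 CPM in Eos+ Tregs against 2.19, 2.34, 2.36 and 4.68 in Tconv, 13.7-fold higher (adjusted p = 4.42e-05). Anxa4, a calcium-dependent membrane-binding protein, was 38.3, 48.2, 45.3 and 37.9 against 3.17, 4.61, 4.91 and 5.81 CPM (9.28-fold).

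**Figure D3:**
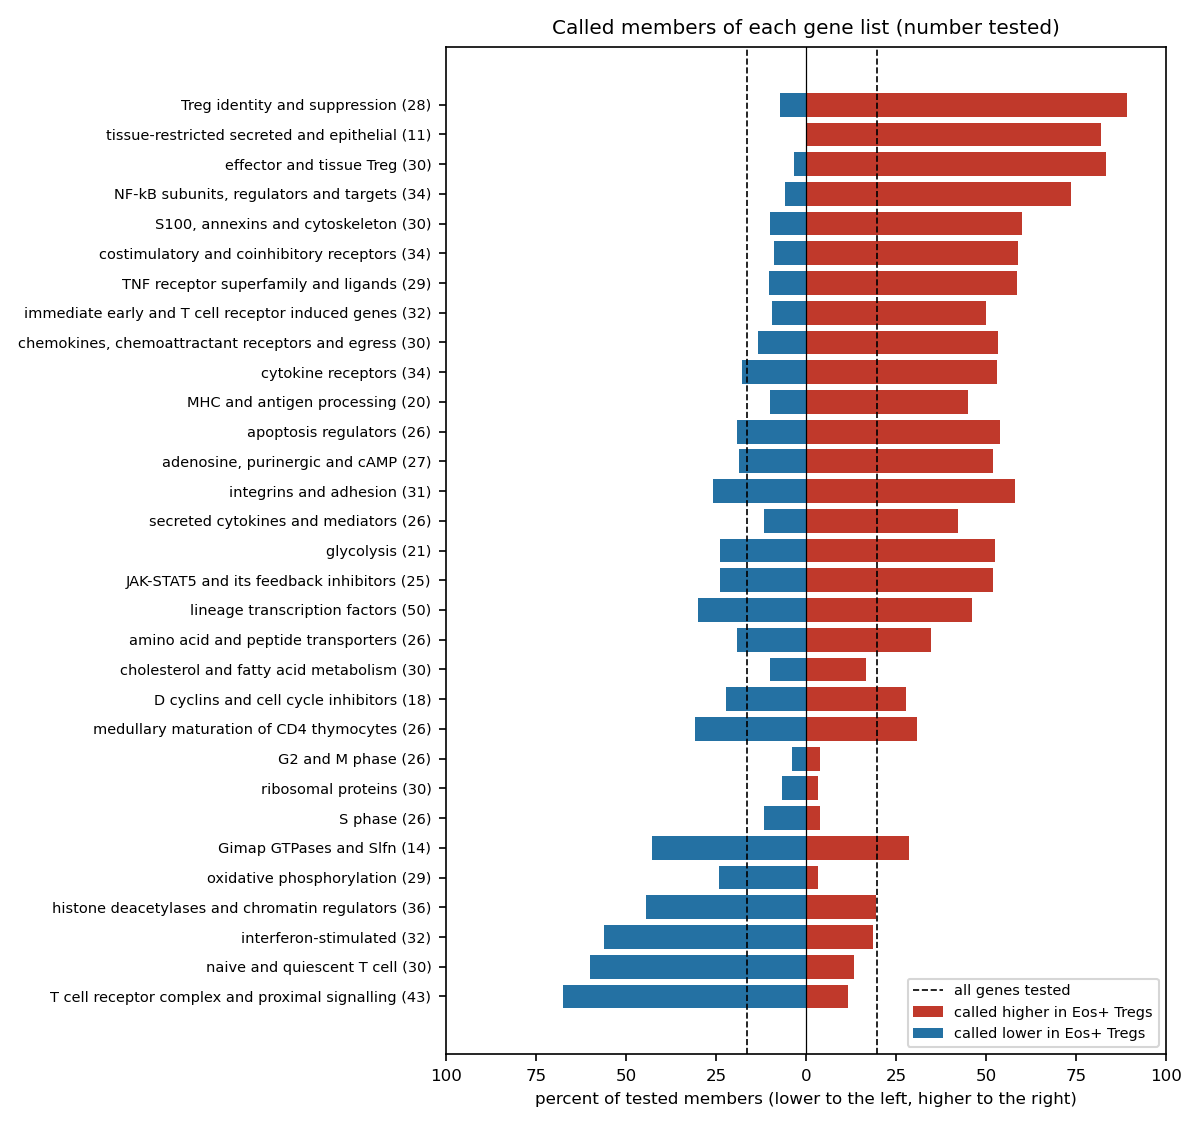
Percent of the tested members of each gene list that were called higher (right) or lower (left) in Eos+ Tregs than in Tconv, with the number of tested members in brackets. Dashed lines mark the shares over all 15361 genes tested, 19.8% higher and 16.5% lower.

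Of 34 costimulatory and coinhibitory genes, 20 were higher and 3 lower (58.8% and 8.82%, against 19.8% and 16.5% over all genes tested). The lower members were Cd28, Pvr and Lair1. Cd28, a costimulatory receptor, was 285 ± 21.2 against 524 ± 72.6 CPM (log2 fold change -0.87, adjusted p = 2.18e-05). Cd80, a ligand of CTLA-4 and CD28 that T cells can also carry, was 10.9, 21.6, 19.6 and 16.9 CPM against 0.915, 0.603, 0.684 and 0.762 (23.6-fold higher). The general T cell antigens Cd2 (1169.8 ± 52.4 against 1236 ± 112 CPM), Cd5 (630.2 ± 27.8 against 689 ± 30.3 CPM) and Cd6 (1184 ± 92.3 against 1263 ± 61.9 CPM) were not called (adjusted p = 0.372, 0.132 and 0.292). Genes induced by T cell receptor signals rose in 16 of 32 cases and fell in 3 (5 without Eos+ Treg replicate 4). Inhibitors of signalling stood on both sides. Dusp4, a MAP kinase phosphatase, was 80.6, 156, 184 and 192 CPM against 6.73, 6.96, 9.26 and 14.3 (16.2-fold, adjusted p = 6.86e-08), Spry1, an inhibitor of ERK signalling, 12.3-fold, and Rgs1 and Rgs16, which shut off G protein signals of chemokine receptors, 9.85-fold and 15.4-fold higher. The members that fell were Dusp10 (2.63-fold) and Dusp6 (2.53-fold), 2 other MAP kinase phosphatases, and Spred2 (2.06-fold), another inhibitor of ERK signalling. Junb (1692 ± 567 against 1489.6 ± 610.5 CPM, adjusted p = 0.22) and Cd69 (379 ± 94.3 against 315 ± 46.4 CPM, adjusted p = 0.22), which respond early to receptor engagement, were not called. On the log2 scale Cd69 differed by 0.23 over all libraries and by 0.42 without Tconv replicate 1 (adjusted p = 0.00369).

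Of 30 chemokine, chemoattractant receptor and egress genes, 16 were higher and 4 lower, counts that include the sort markers Ccr6 and Cxcr4. Gpr15, a receptor that guides T cells to the colon and skin, was 63, 50.4, 52.6 and 42.9 CPM against 0.262, 0.106, 0.497 and 0, 246-fold higher (adjusted p = 1.86e-06). Gpr15 had a log2 fold change of 7.94 over all libraries, which became 8.85 without Tconv replicate 3. Cxcr5, the follicle-homing receptor, was 26.9-fold higher at 70.2 ± 19.7 against 2.75 ± 1.76 CPM. Ccr9, a receptor of thymocytes and of gut-homing cells, went the other way, at 65.2, 11, 19.6 and 29.4 CPM in Eos+ Tregs against 441, 499.5, 243 and 421 in Tconv (14.8-fold lower, adjusted p = 5.04e-05). The genes of lymph node entry and thymic egress did not part the groups. Ccr7, the lymph node homing receptor, was 689.8, 714, 831 and 1072 CPM against 780.1, 715, 871 and 1035. S1pr1, the receptor for egress from the thymus, was 241, 370.2, 419.9 and 340.3 against 307, 315, 367 and 286 CPM. Klf2, the factor that switches S1pr1 on, was 168, 210.4, 367 and 437 against 221, 225, 328 and 302 CPM. All 3 overlapped between the groups (adjusted p = 0.548, 0.544 and 0.779). With all libraries in the fit S1pr1 differed by 0.09 (log2), against 0.21 without Eos+ Treg replicate 1 (adjusted p = 0.0493). In the other comparison of the fit, Eos+ against Eos- Tregs, where 22.8% of genes were called (13.1% higher and 9.67% lower), the same 3 genes were lower in Eos+ Tregs, Ccr7 1.64-fold, S1pr1 2.11-fold and Klf2 1.97-fold (adjusted p = 3.21e-05, 6.92e-05 and 0.000343).

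Integrins and adhesion molecules changed in 18 genes upward and 8 downward of 31. Nrp1, a coreceptor for semaphorins and VEGF, was 704, 705, 613 and 605 CPM against 23.7, 20.5, 11.8 and 25.1 (33-fold, adjusted p = 6.86e-08), and Itgae, the alpha chain CD103 that binds E-cadherin of epithelium, 317 ± 74.4 against 27.8 ± 16.9 (12.3-fold). Itgb3 was 31.9, 15.8, 34.1 and 21.9 CPM in Eos+ Tregs against 288, 336, 347 and 261 in Tconv, 12.1-fold lower (adjusted p = 6.76e-07). Itga1, the alpha chain of a collagen receptor, had 2 counts over the 4 Eos+ Treg libraries against 1413 in Tconv, both of the 2 in replicate 3. Tconv thus exceeded Eos+ Tregs by a factor of 740 per scaled total, with 205 to 6120 as its exact 95% bounds for counting error alone. Itgal, the alpha chain of LFA-1, was not called (824 ± 34.8 against 836 ± 49.6 CPM, adjusted p = 0.81). Of 30 S100, annexin and cytoskeleton genes, 18 were higher and 3 lower, with the scaffold Ahnak at 271, 279, 353 and 243 against 28.7, 27.3, 42.6 and 44 CPM (8.08-fold), the actin-capping protein Capg 7.75-fold and S100a4 9.86-fold higher. Vim (357 ± 32.8 against 345 ± 51.3 CPM), Myh9 (605 ± 137 against 601 ± 36.5 CPM) and Actn4 (479 ± 54.6 against 464 ± 26 CPM) were not called (adjusted p = 0.637, 0.893 and 0.651), and Cnn3, a calponin, was 4.54-fold lower.

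Of 23 listed genes best known from epithelium, endocrine glands or nerve, 12 had too few counts to be tested, 9 were higher and 2 were not called. The tested members are those with enough counts in some group, in cases such as Muc16 through the Treg libraries alone, and the genes were listed with the earlier results known, so the count supports nothing beyond these genes. Rln3, a relaxin peptide gene, was 76.8, 70.4, 77 and 74 CPM against 2.39, 2.63, 1.83 and 3.52. Syp, of synaptic vesicles, was 31.6, 38, 28 and 19.8 against 1.21, 0.674, 0.59 and 0.868 CPM. In Eos- Tregs they stood at 59 ± 9.28 and 20.3 ± 3.83 CPM (adjusted p = 0.0856 and 0.0737 between the Treg groups). Some genes had no count in Tconv, so a fold is given as a bound against a floor of 3 counts over the 4 Tconv libraries. Muc16, a membrane mucin, was 8.62, 8.12, 11.8 and 12.2 CPM in Eos+ Tregs, at least 438-fold higher. Gcg, the glucagon precursor, was 1.32, 11.3, 7.32 and 10.5 CPM, at least 332-fold higher. Aldh1a2, an enzyme of retinoic acid synthesis, was 6.96, 7.87, 4.72 and 5.1 CPM, at least 265-fold higher. In Eos- Tregs, Gcg was 0.166, 0.199, 0 and 0.0287 CPM and Aldh1a2 0.498, 0.256, 0.0691 and 1.78 CPM. Gcg and Aldh1a2 lay outside the naming rule and were chosen after their values were seen.

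On the side of loss, genes of naive and quiescent T cells were lower in 18 of 30 cases and higher in 4, with a median log2 fold change of -0.63, and 19 were lower without the libraries numbered 1. Satb1, a chromatin organiser of thymocytes, had the smallest p of all genes that were lower, at 474, 331, 345 and 509 CPM in Eos+ Tregs against 3523, 3367, 2526 and 3071 in Tconv (7.57-fold, log2 fold change -2.92, SE 0.115, adjusted p = 6.86e-08). Lef1, which helps keep T cells naive, was 264, 283, 325 and 342 against 1337, 1204, 1105 and 1086 CPM (3.88-fold lower). Tcf7, its partner, was 788, 857, 695 and 744 against 1770.03, 1857, 1788 and 1744 CPM (2.33-fold lower). The groups did not overlap for any of the 3 factors. Igfbp4, a binding protein of insulin-like growth factors, was 22.1, 10.3, 27.3 and 18.7 against 398, 516, 689.8 and 361 CPM (25.3-fold), and Tgfbr3, the TGF-beta coreceptor betaglycan, 10.2-fold lower at 13 ± 3.69 against 130.1 ± 12.6 CPM. In Eos- Tregs Tcf7 was 898 ± 132 CPM (adjusted p = 0.055 between the Treg groups), and Satb1 and Lef1 were lower in Eos+ than in Eos- Tregs (3.56-fold and 2.19-fold, adjusted p = 7.50e-06 and 0.000115).

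**Figure D4:**
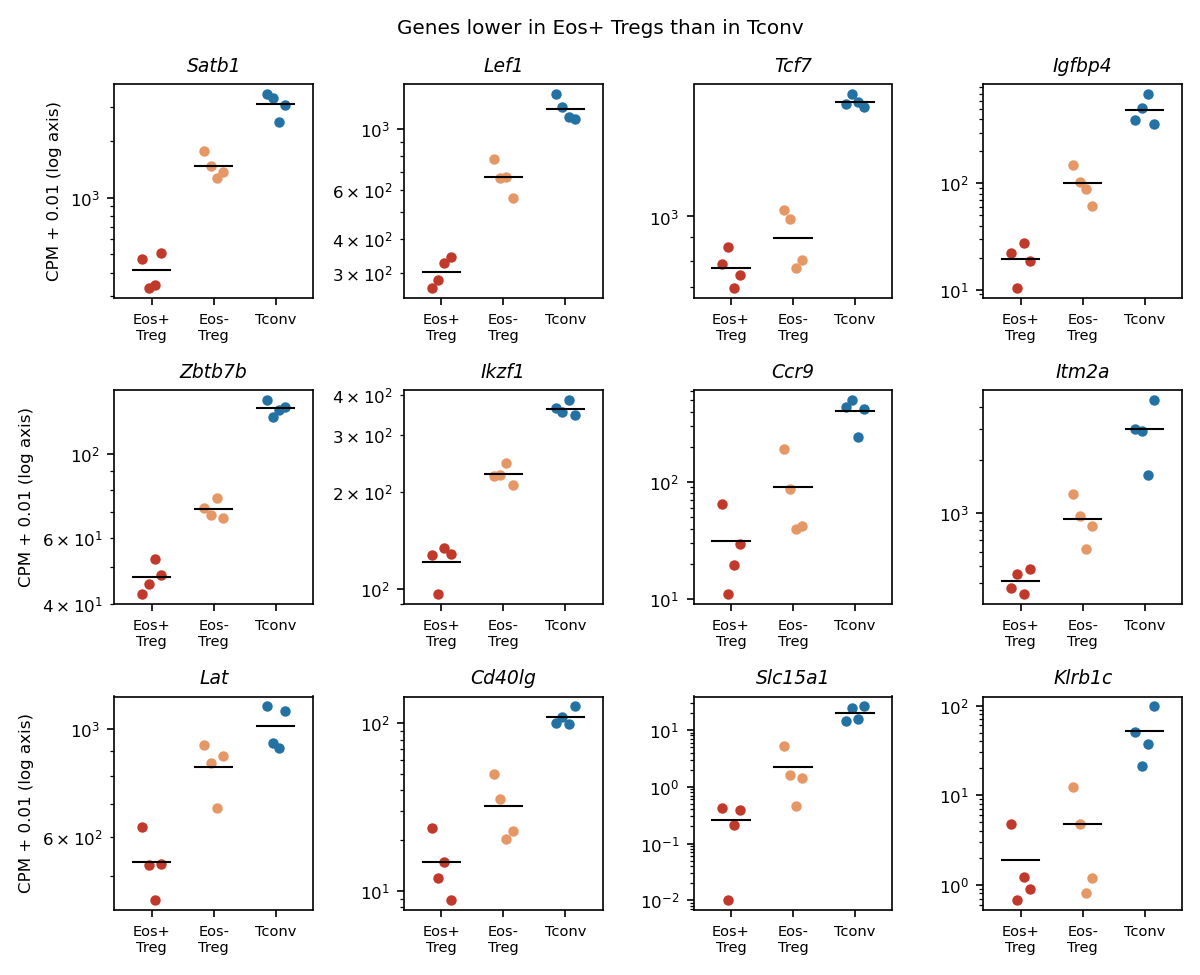
CPM plus 0.01 on a log axis for 12 genes that were lower in Eos+ Tregs than in Tconv, 1 point per library, with Eos- Tregs shown for reference and a bar at each group mean. Every Eos+ Treg point lies below every Tconv point.

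Zbtb7b, which encodes ThPOK, the factor that commits thymocytes to the CD4 lineage, was 42.4, 45.3, 52.7 and 47.8 CPM against 139, 125, 131 and 133 (2.81-fold lower, adjusted p = 3.72e-07). Ikzf1, the gene of Ikaros, the founding member of the family to which Eos belongs, was 128, 96.3, 134 and 129 against 364, 354, 386 and 347 CPM (2.99-fold lower), whereas Ikzf3, the gene of Aiolos, was 90.7 ± 11 against 91.7 ± 16.7 CPM and was not called (adjusted p = 0.945). Over the list of 50 lineage transcription factors 23 were higher and 15 lower. Sox4, active in immature thymocytes, was 3.8-fold lower at 70.7 ± 21.7 against 260.4 ± 43.8 CPM, and Itm2a, a membrane protein of selected thymocytes, 376, 450.4, 347 and 481 against 2994, 2906, 1646 and 4354 CPM (6.87-fold lower, adjusted p = 2.38e-06). In the maturation list, where surface class I genes and early markers stand side by side, 8 of 26 were higher and 8 lower.

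The T cell receptor complex and its first signalling steps were mostly lower, by small amounts. Of 43 genes, 29 were lower and 5 higher, with a median log2 fold change of -0.34, and 3 fell more than 2-fold. These were Pag1, a membrane adaptor that recruits the inhibitory kinase Csk (3.41-fold, 15.9 ± 4.27 against 53.9 ± 13 CPM), Themis, which tunes receptor signals during selection (3.38-fold, 63.3 ± 14.4 against 214 ± 47.9 CPM), and Txk, a Tec family kinase (3.31-fold, 74.5 ± 23.1 against 241 ± 17.7 CPM). Lat, the adaptor that assembles the signalling complex, was 630.1, 527, 446 and 529 CPM against 1111, 933, 915 and 1085 (1.9-fold lower, adjusted p = 1.81e-06), and Trac, the receptor alpha constant region, was 1.7-fold lower. Attenuators of receptor signalling stood on both sides. The 5 members that rose were Ptpn22 (1.98-fold), Ubash3b (2.64-fold), Ubash3a (1.16-fold), Cblb (1.62-fold) and Sla (1.59-fold). Those that fell, besides Pag1, included Ptpn6 (1.72-fold), Sit1 (1.59-fold), Csk (1.37-fold), Ptpn2 (1.2-fold), Sla2 (log2 fold change -0.25) and Dgkz (-0.23). Sla2 lost its call without Eos+ Treg replicate 1, 2 or 4 or Tconv replicate 2, 3 or 4 (adjusted p 0.061 to 0.125) and Dgkz without replicate 1 or 4 of either group (adjusted p 0.0598 to 0.096), and without the replicate block their adjusted p was 0.17 and 0.106. Ubash3a (adjusted p = 0.0388) kept its call in the fit without Eos+ Treg replicate 3 and lost it without any other 1 of the 8 libraries (adjusted p 0.054 to 0.134), and without the replicate block its adjusted p was 0.0809. Zap70 (229 ± 25 against 255 ± 17.4 CPM, adjusted p = 0.201), Lcp2 (562 ± 42.6 against 588 ± 21.3 CPM, adjusted p = 0.354) and Plcg1 (366 ± 74.9 against 396 ± 33.8 CPM, adjusted p = 0.36) were not called. Cblb, Sla, Lat, Trac, Ubash3a and Zap70 here, and Ndrg1, Gbp4, Socs1, Socs3, Socs4, Socs6, Socs7, Ptpn2, Ptpn6, Sit1, Csk, Sla2, Dgkz, Dusp6, Dusp10, Spred2, Rel, Nfkb2, Rela, Stat5a and Ms4a1 elsewhere, were named outside the naming rule, with their values known. Cd28, Lair1, Pvr, Il2rg and Gzmb were also named outside that rule, with their values known. Of 129 tested variable segments of T cell receptor genes, 41 were lower and 1 higher, and reads of such similar segments are shared out by the counting.

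The largest losses included transporters, adhesion molecules and receptors of natural killer cells. Slc15a1, a peptide transporter of the gut, was 0.408, 0, 0.204 and 0.381 CPM in Eos+ Tregs against 14.3, 24.1, 15.9 and 26.2 in Tconv (94-fold lower, adjusted p = 8.81e-05), Chl1, a neural adhesion molecule, 42.5-fold and Acvrl1, a receptor of the TGF-beta family, 26.7-fold lower at 5.05 ± 2.92 against 126 ± 4.15 CPM. Of 14 tested markers of CD8, natural killer and cytotoxic cells, 8 were lower and 1 higher (2 without Eos+ Treg replicate 1 or Tconv replicate 4). These shares were 57.1% lower and 7.14% higher, against 16.5% and 19.8% over all genes tested. Klrb1c, which encodes NK1.1, was 4.8, 0.66, 1.2 and 0.88 CPM in Eos+ Tregs against 50.6, 20.9, 37.5 and 98.4 in Tconv. Klrk1, the receptor NKG2D, was 7.65, 0.115, 1.55 and 3.84 against 41.7, 25.4, 34.8 and 88.1 CPM. Zbtb16, the gene of PLZF, the factor of innate-like T cells, was 0, 0, 0.146 and 0 against 3.73, 4.86, 4.35 and 9.54 CPM. Tconv replicate 4 was the highest of all libraries for these 3 genes. The log2 fold change of Klrb1c, -5.17 over all libraries, was -4.34 without Tconv replicate 4. On the log2 scale Zbtb16 differed by -7.22 over all libraries and by -10.74 without Eos+ Treg replicate 3, -7.92 without Tconv replicate 3 and -6.39 without Tconv replicate 4. The Foxp3- gate of Tconv could hold innate-like CD4+ cells, and the summed level of this marker list ran from 208 to 354 CPM in Eos+ Tregs and from 286 to 633 CPM in Tconv. Ncr1, another natural killer receptor, had 0 counts in Tconv and 6 in Eos+ Tregs, too few for it to be tested. Klrb1c and Klrk1 had 7086 and 6460 counts in Tconv and 247 and 432 in Eos+ Tregs. The part of such cells in these losses was not tested. In sorted bulk samples a smaller share of cells of a type and less RNA per cell cannot be told apart. The exception in the list was Ccl5, a chemokine of activated T cells, 7.78-fold higher at 37.4 ± 9.49 against 5.11 ± 2.22 CPM.

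Interferon-stimulated genes were mostly lower, 18 of 32 against 6 higher, by small amounts, with a median log2 fold change of -0.24, and without the replicate block 11 were lower and 3 higher. Oas2, a sensor of double-stranded RNA, was 6.43, 7.09, 13.1 and 15.3 CPM against 80.8, 72.8, 112 and 92.1 (8.9-fold lower, adjusted p = 3.50e-07), while Gbp3, a guanylate-binding protein, was 5.88-fold higher at 83.9 ± 17.8 against 14.2 ± 2.88 CPM. Irf9 (297 ± 8.34 against 289.99 ± 21.4 CPM, adjusted p = 0.719), which carries the interferon signal to the nucleus, was not called. Of 20 genes of antigen presentation, 9 were higher and 2 lower (1 without Eos+ Treg replicate 3 or Tconv replicate 3), with H2-K1 at 5159, 4716, 5211 and 5390.4 CPM against 2463, 2009.8, 3059 and 2826 (2-fold), B2m 1.53-fold and the Qa-2 genes H2-Q6 and H2-Q7 12.2-fold and 3.5-fold higher. The H2 genes are near-identical copies of each other in part, and reads among them are shared out, so their separate values are uncertain. Gimap4, a GTPase of lymphocytes, was 537, 429, 506 and 546 against 1049, 972, 969 and 1163 CPM (2.06-fold lower), and Gimap3 was 1.62-fold higher in the same family.

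Among 26 apoptosis regulators, 14 were higher and 5 lower. Pmaip1, which encodes the death factor NOXA, was 13-fold higher at 48.3 ± 17.7 against 3.76 ± 1.87 CPM, and Bcl2l11, which encodes the death factor BIM, 3.05-fold lower at 31.4 ± 5.89 against 94.5 ± 11.7 CPM. Of 21 glycolysis genes, 11 were higher and 5 lower, the latter 3 without Eos+ Treg replicate 1 or 4 or Tconv replicate 2 or 3 and 2 without the replicate block. Hif1a, a driver of the pathway, was 459, 512, 559 and 509 CPM against 178, 191, 158 and 172 (2.91-fold), Tpi1, triose phosphate isomerase, 3.16-fold and Aldoc 12.7-fold higher. Pdk1, a kinase that inhibits pyruvate dehydrogenase, was 2.44-fold lower. Pkm (1658 ± 173 against 1788 ± 109 CPM, adjusted p = 0.38) was not called. The 30 ribosomal protein genes had 1 higher and 2 lower, the 26 S phase genes 1 and 3, and the 26 G2 and M phase genes 1 and 1. Of the 18 D cyclins and cell cycle inhibitors, 5 were higher and 4 lower, with 3 higher without the replicate block. Over fits that leave out 1 library, the ribosomal counts ran from 1 to 2 higher (2 without Tconv replicate 3) and from 1 to 4 lower (1 without Eos+ Treg replicate 2 or 3 or Tconv replicate 2 or 3, 4 without replicate 4 of either group), and the G2 and M phase gene that was higher kept its call only without Eos+ Treg replicate 2. The 29 oxidative phosphorylation genes had 1 higher (3 without Eos+ Treg replicate 4, 2 without Tconv replicate 4) and 7 lower (4 without Tconv replicate 2). Mki67, a marker of cycling cells, was 50.4, 18.2, 38.6 and 43.3 CPM against 62.5, 66.5, 49.8 and 31 (adjusted p = 0.614).

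Markers of other cells were measured because a CD4 gate can hold some of them. Over all genes tested 19.8% were higher and 16.5% lower. The shares were 25% and 0% for B cell markers and 15.8% and 10.5% for dendritic cell and macrophage markers. Epithelial and stromal markers had 22.2% and 22.2%, and double-positive thymocyte markers 10% and 20%. Innate lymphoid markers had 61.5% and 7.69%, gamma-delta and NKT markers 0% and 40%, and erythroid and granulocyte markers 42.9% and 0%. Of 16 B cell markers, 4 were higher in Eos+ Tregs and 0 lower, and their summed level ran from 1913 to 3194 CPM against 437 to 1127 in Tconv, with Cd79b, Ighm, Ighd and Cd74 as the members that rose. Without Tconv replicate 3, 8 were higher, limma-voom called 10, and Cd74 lost its call without the replicate block (adjusted p = 0.163). Ighm, the immunoglobulin mu constant region, was 1656, 1548, 1330.02 and 1559.7 CPM against 343, 219, 194 and 245 (6.27-fold), while Ms4a1, a defining B cell marker, was 15.6, 14.5, 4.02 and 4.99 against 6.87, 4.79, 5.44 and 1.21 CPM and was not called (adjusted p = 0.41 by edgeR, 0.00338 by limma-voom). Of 19 dendritic cell and macrophage markers 3 were higher and 2 lower, 7 higher with 8 libraries only, 8 by limma-voom and 1 lower without Eos+ Treg replicate 2 or 4 or Tconv replicate 1, 2 or 4 (summed level 152 to 276 against 102 to 150.4 CPM). Of 9 epithelial and stromal markers 2 were higher and 2 lower (148 to 212 against 201 to 226 CPM). The lower count was 1 without Eos+ Treg replicate 2 or Tconv replicate 1, 3 or 4. The 4 Eos+ Treg libraries held 21 counts of Krt5 and 1 of Foxn1 in all, against 0 of each in Tconv. Aire had 215 counts in Eos+ Tregs against 27 in Tconv, and Krt18 178 against 48. Pecam1 (18437 against 26192), Pdgfrb (34 against 76) and Cdh5 (0 against 57) went the other way. Among 13 tested innate lymphoid markers, 8 were higher and 1 lower (2 without Tconv replicate 1), a list that shares Ccr6 and Nrp1 with the lists above. Of 20 markers of double-positive thymocytes 2 were higher and 4 lower, of 10 of gamma-delta and NKT cells 0 and 4, and of 7 of erythroid cells and granulocytes 3 and 0. The double-positive count of higher genes was 0 or 1 without any 1 library, and the erythroid count was 0 without replicate 4 of either group. The part of such cells in the differences above was not tested.

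**Figure D5:**
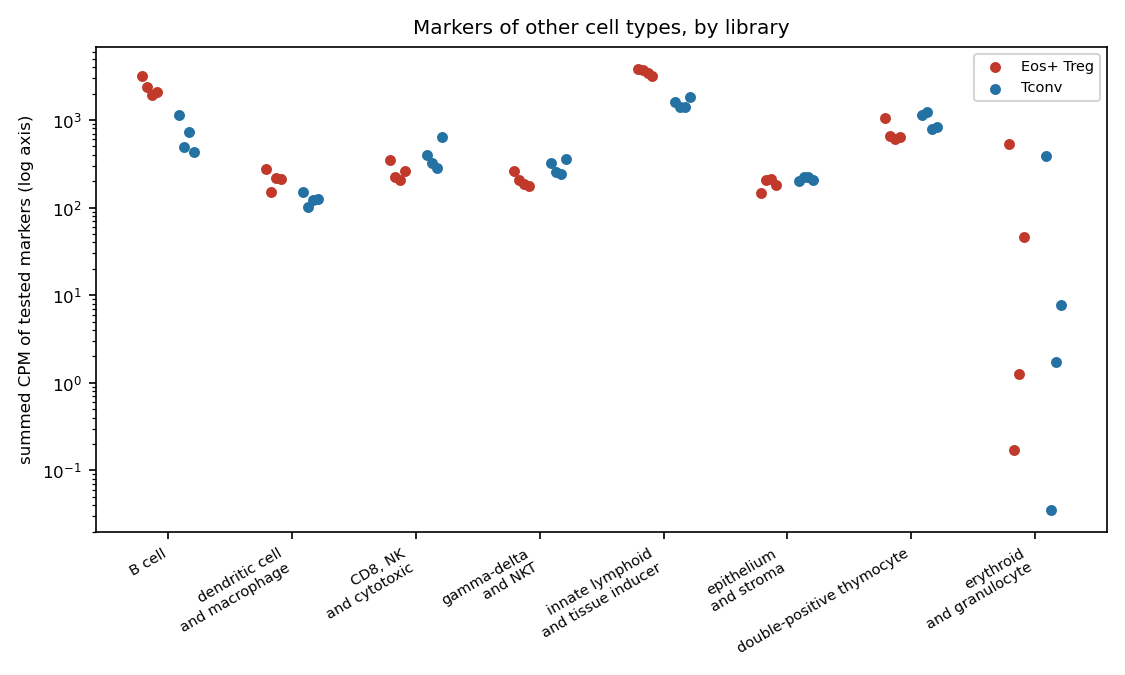
Summed CPM (log axis) of the tested markers of 8 kinds of other cells, 1 point per library of Eos+ Tregs and Tconv. The B cell, dendritic cell and innate lymphoid sums are higher in every Eos+ Treg library than in every Tconv library, and the erythroid and granulocyte sum runs from 0.172 to 532 CPM in Eos+ Tregs and from 0.0355 to 388 in Tconv.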

How the data were processed

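RNA of sorted thymic CD4+ cells was read by RNA sequencing from 1 ng of total RNA (SMARTer and Nextera XT kits, per the labels' protocols). The deposited expected counts per gene come from cutadapt, STAR 2.7.0f and RSEM 1.3.1 on mm10, per the submitters' processing notes, and between 9.54% and 10.7% of values per library were not whole. They were rounded. After edgeR's filter on low counts 15361 of 55450 genes were tested with edgeR 4.0.16 (R 4.3.3): TMM scaling, quasi-likelihood F test over all 12 libraries with group and replicate block, Benjamini-Hochberg adjustment over all genes, threshold 0.05. A gene past it is called. SE is the size of the log2 fold change divided by the square root of F. Errors beside means are SDs (n = 4). Same-numbered Eos+ Treg and Tconv libraries deviated together from their group means (r = 0.21, 0.15, 0.19 and 0.16). The numbers were therefore taken to pair the samples. Differently numbered libraries had r of at most 0.00425. Because deviations are taken from the group mean, a positive same-number r lowers the others, so their low r is no separate support. No 2 replicates differed by as little as counting noise. Single values were tested by exact permutation. On simulated counts for this comparison (15361 genes, 200 changed) the fit recovered 72% of 2-fold and 97% of 4-fold changes. The simulation gave every gene the same dispersion, set by hand, and changed far fewer genes than were called here. Its rates describe that setting only. Named genes are markers and sort genes, the 20 largest changes (higher group at 10 CPM or more, no overlap) and 15 smallest p per direction, and per list up to 6 called and 3 uncalled members. Members and lists were chosen with earlier results of these data known. Alternatives were other scalings, filters and tools (DESeq2 1.42.0, limma 3.58.1), no block, 8 libraries, and libraries left out.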

Additional observations from a re-analysis of the deposited data

Results flagged for a closer look

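In 18 of 322 groups of 4 libraries (161 genes, 2 groups each) 1 library stood apart from the other 3 by more than Dixon's 95% critical value, and chance gives about 1 in 20. Eos+ Treg replicate 1, the library with little Foxp3, stood apart for 7 genes: it was high for Il7r (478 CPM against 238 to 279 in the others), Klrb1c (4.8 CPM against 0.66 to 1.2) and Sit1 (122 CPM against 89.1 to 93.3), and low for Jak2 (151 CPM against 219 to 229), Rela (212 CPM against 255 to 257), Socs5 (26.1 CPM against 35.9 to 36.2) and Tnfrsf4 (1259 CPM against 1376 to 1395). Eos+ Treg replicate 2 was low for Ikzf1 at 96.3 CPM, with the others at 128 to 134. Eos+ Treg replicate 3 held the only counts of Itga1 (0.0583 CPM) and of Zbtb16 (0.146 CPM) in its group. Tconv replicate 4 was high for Csf1 (4.68 CPM against 2.19 to 2.36), Gbp3 (18.5 CPM against 12.4 to 13.3), Ikzf3 (117 CPM against 81.1 to 84.4) and Tnfrsf18 (304 CPM against 202 to 207). Tconv replicate 3 was high for Acvrl1 (132 CPM against 124 to 125) and Pde3b (218 CPM against 187 to 190.4). Tconv replicate 1 was high for Ighd (4.61 CPM against 1.53 to 1.71) and low for Pdk1 (235 CPM against 262.9 to 263.3).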

How the results depend on the processing

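The count of called genes, 5571, stayed within 1.5 times under every alternative but the test against a 1.5-fold change, which called 2101 genes, 1463 higher and 638 lower. Of the called genes 54.6% were higher, and 69.6% under that test. The fit with no replicate block called 4655 genes, 4581 of them also called with the block. The pairing changed the calls of 6 of the 161 named genes checked (Cd74, Dgkz, Il10, Il1r1, Sla2 and Ubash3a). Cd28, Lair1, Pvr, Il2rg, Gzmb, Aire, Krt18, Pecam1, Pdgfrb and Cdh5 were not among the genes checked. Leaving out 1 library gave 4472 to 5114 called genes. For the sort genes and Ikzf4 the exact p with 1 library left out was 0.0286 to 0.0571, the upper value for Cxcr4 without Tconv replicate 2 or 4, and the exact p with the replicate block, swapping libraries within pairs only (added after the data were seen), was 0.125 for each of these genes. Among the named genes checked, none that was called in the main or the alternative fit reversed its direction under the 17 alternative fits. Changes of sign in genes called in neither fit were not counted. Genes with few counts in 1 group, such as Il10 and Zbtb16, are limited by depth: their fold changes moved by over 1.5 times when 1 library was left out.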
